A study of Homo sapiens with 40 samples.

Results

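The gene set described here holds 38 genes of central carbon metabolism, chosen by name as the genes of glucose and lactate transport, glycolysis, the pentose phosphate pathway, pyruvate oxidation and the tricarboxylic acid (TCA) cycle, out of 60279 genes listed in the count tables. No measured value entered the choice, though earlier results of these data were known when it was made. They are 3 transporters, 9 genes of upper glycolysis (HK1, HK2, GPI, PFKL, PFKM, PFKP, ALDOA, ALDOC, TPI1), 8 genes of lower glycolysis with lactate formation (GAPDH, PGK1, PGAM1, ENO1, ENO2, PKM, LDHA, LDHB), 3 regulators (PFKFB3, PDK1, PDK3), 2 subunits of pyruvate dehydrogenase (PDHA1, PDHB), 4 genes of the pentose phosphate pathway and glycogen (PGD, TKT, TALDO1, PGM1) and 9 genes of the TCA cycle (CS, IDH1, IDH2, IDH3A, OGDH, SUCLG1, FH, MDH1, MDH2).

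Glycolysis splits glucose into pyruvate in the cytosol and yields ATP and NADH, and lactate dehydrogenase regenerates NAD by reducing pyruvate to lactate, which leaves the cell through monocarboxylate transporters. The pentose phosphate pathway draws off glucose phosphate for NADPH and ribose, and the mitochondrial pyruvate dehydrogenase complex feeds acetyl groups into the TCA cycle. Cultured tumour cells commonly ferment much of their glucose even in the presence of oxygen, and several enzymes of these pathways exist as isozymes encoded by separate genes.

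The study compared plate-based full-length single cell mRNA sequencing protocols on T47D, a luminal breast cancer cell line that expresses the estrogen receptor. It also tested SMART-seq3, which is not among the samples used here. Cells of passage 10 were sorted as EpCAM+/CD49f+ single cells and processed by G&T (Genome & Transcriptome sequencing, a non-commercial protocol that separates mRNA from DNA before reverse transcription), Takara (SMART-seq HT kit) or NEB (NEBNext Single Cell/ Low Input kit). Per the methods, G&T and Takara used a template switching oligo with a locked nucleic acid, NEB one without it and more cycles of PCR. The tables hold 13 G&T, 13 Takara and 14 NEB cells, of which 11 per protocol were kept with the quality limits of the methods, and all were untreated.

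All cells came from 1 cell line at passage 10, and the sources do not state whether they shared a culture or a sort. Each protocol was 1 set of libraries sequenced in its own run, so a protocol is 1 sample here. Protocol and run, and culture or sort if these differed, cannot be told apart. No test was made and no p-value is given. Levels are CPM, the reads of a gene scaled to a common total of reads on genes per cell. A pooled level is the sum over the 11 kept cells of a protocol, and where 3 levels follow each other for a protocol they are its lowest, median and highest cell. Pooled levels and ratios of pooled levels are given with a 95% exact interval. The reads carry no molecular identifiers and are not independent molecules, so intervals cover counting error only and not the spread between cells or between repeated experiments. A gene was counted as higher or lower in a protocol when the log2 ratio, with 1 CPM added to both levels, reached 2-fold.

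The kept cells held 672328 to 1297218 reads on genes and spike-in transcripts each. Between 9541 and 12794 genes had a read in a G&T cell, 10624 to 11855 in a Takara cell and 4416 to 6719 in an NEB cell. Mitochondrial genes took 9.18% to 21.7% of a G&T library, 7.84% to 13.2% of a Takara library and 6.97% to 9.39% of an NEB library. Luminal epithelial markers were read in each protocol: EPCAM, KRT8, KRT18, KRT19, ESR1, GATA3 and CDH1 together took 0.938% ± 0.268 (SD over 11 cells) of reads in G&T cells, 1.702% ± 0.544 in Takara cells and 0.336% ± 0.129 in NEB cells. Markers of other cells (PTPRC, PECAM1, VIM, COL1A1, KRT14, KRT5) summed to at most 0.0128% of reads in a cell, with PTPRC, PECAM1, KRT14 and KRT5 at 0 in Takara and NEB.

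All 38 genes together took a larger part of the library in Takara than in G&T, and in G&T than in NEB. The lowest, median and highest cell had 0.551%, 0.863% and 1.04% of its reads on them in G&T, 1.44%, 1.653% and 1.82% in Takara and 0.354%, 0.422% and 0.734% in NEB. Every Takara cell lay above every G&T and NEB cell, whereas G&T and NEB overlapped. Glycolysis had the same order, and its 17 enzyme genes took 1.14% ± 0.112 of reads in Takara cells, 0.492% ± 0.125 in G&T cells and 0.196% ± 0.0651 in NEB cells (mean and SD over 11 cells). The Takara cells (0.981%, 1.12% and 1.34%) again did not overlap the G&T cells (0.274%, 0.5002% and 0.675%), and among NEB cells (0.138%, 0.179% and 0.379%) the highest, cell A1, was the 1 that reached into the G&T range. The summed share of the epithelial markers had the same order of protocols, though 3 of the 7 markers did not (ESR1 and CDH1 were highest in NEB, GATA3 in G&T), and its part in the result was not tested.

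The TCA cycle differed less. Its 9 genes took 0.214% ± 0.0417 of reads in G&T cells, 0.321% ± 0.0348 in Takara cells and 0.169% ± 0.0429 in NEB cells, and the G&T and NEB cells overlapped over most of their range. The 4 pentose phosphate and glycogen genes took 0.0704% ± 0.0123 in a G&T cell, 0.0855% ± 0.00947 in a Takara cell and 0.0136% ± 0.00898 in an NEB cell, and in NEB every cell lay below every cell of the other protocols. The pair of pyruvate dehydrogenase genes was the exception to the order: NEB had 0.06398% ± 0.0228, about the level of Takara with 0.0627% ± 0.0105, and G&T was lower with 0.0354% ± 0.0129. Reads on glycolysis per read on the TCA cycle therefore went from 0.591, 1.11 and 2.17 (lowest, median and highest cell) in NEB to 1.56, 2.38 and 2.99 in G&T and 2.93, 3.48 and 4.81 in Takara. The TCA group counts the cytosolic enzyme genes MDH1 and IDH1. MDH1 alone held 7862 of its 13546 pooled reads in NEB, against 3590 of 20409 in G&T and 4482 of 37342 in Takara. The NEB level of the group and its ratio to glycolysis thus rest largely on MDH1, and so does the smaller difference between protocols. Levels of the group without its gene with most reads are given in the last section. That gene was MDH1 in NEB and MDH2 in G&T and Takara. Neither the level nor the ratio was computed without both MDH1 and IDH1.

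**Figure D1:**
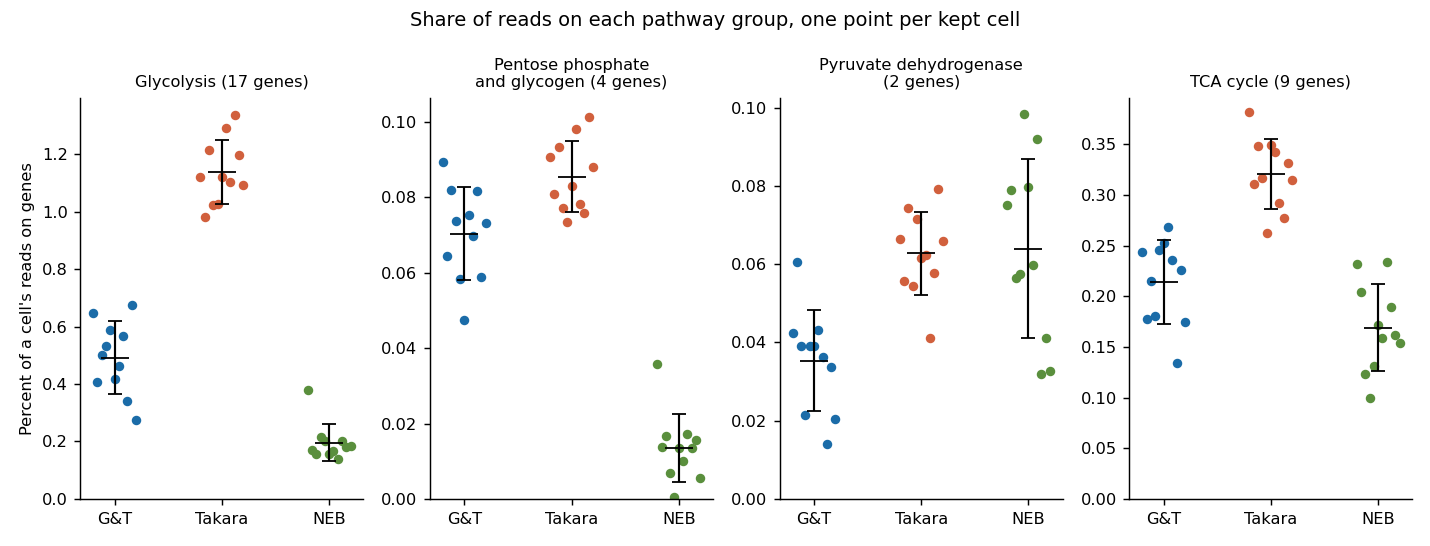
Percent of a cell's reads on genes that fell on 4 groups of the gene set, with 1 point per kept cell, 11 cells per protocol, and black bars for the mean with 1 SD over cells. Takara cells lie highest for glycolysis and the TCA cycle, NEB cells lie lowest for glycolysis and the pentose phosphate group, and for pyruvate dehydrogenase NEB reaches from 0.0319% to 0.0983%.

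Gene by gene, Takara over NEB showed the most one-sided comparison. Of the 38 genes 28 were higher in Takara by 2-fold or more, where 39.3% of 8229 genes with a mean pooled level of at least 10 CPM were, and 2 (PDK1 and MDH1) were lower, where 24.2% of those genes were. The median log2 ratio was 2.08 over the 38 genes and 0.35 over all 8229 genes. G&T over NEB gave 25 higher genes (37.9% of all genes) and 5 lower ones (21.8% of all genes), the latter being PDK1, PDHB, IDH1, IDH3A and MDH1, with a median of 1.61 against 0.34. Of the 17 glycolysis genes, 14 were higher in Takara and 11 in G&T than in NEB, with none lower and medians of 2.66 and 1.78. The 9 TCA cycle genes had 6 higher and 1 lower in Takara over NEB (median 1.81) and 6 higher and 3 lower in G&T over NEB (median 1.36). These comparisons share the NEB libraries, and each set of values stands on its own.

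In G&T over Takara the genes leaned to Takara. Here 13 of 38 were lower in G&T (19.9% of all genes) and 4 were higher (17.3% of all genes), namely SLC16A1, SLC16A3, OGDH and SUCLG1. The median log2 ratio was -0.81 over the 38 genes and -0.12 over all genes tested. Among the 17 glycolysis genes 7 were lower in G&T and 0 higher (median -0.92), and among the 9 TCA cycle genes 3 were lower and 2 higher (median -0.61). Of the 38 genes 35 reached a mean of 10 CPM. The other 3, SLC16A1, ENO2 and LDHB, stay in the counts above but not in the percentages over all genes.

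**Figure D2:**
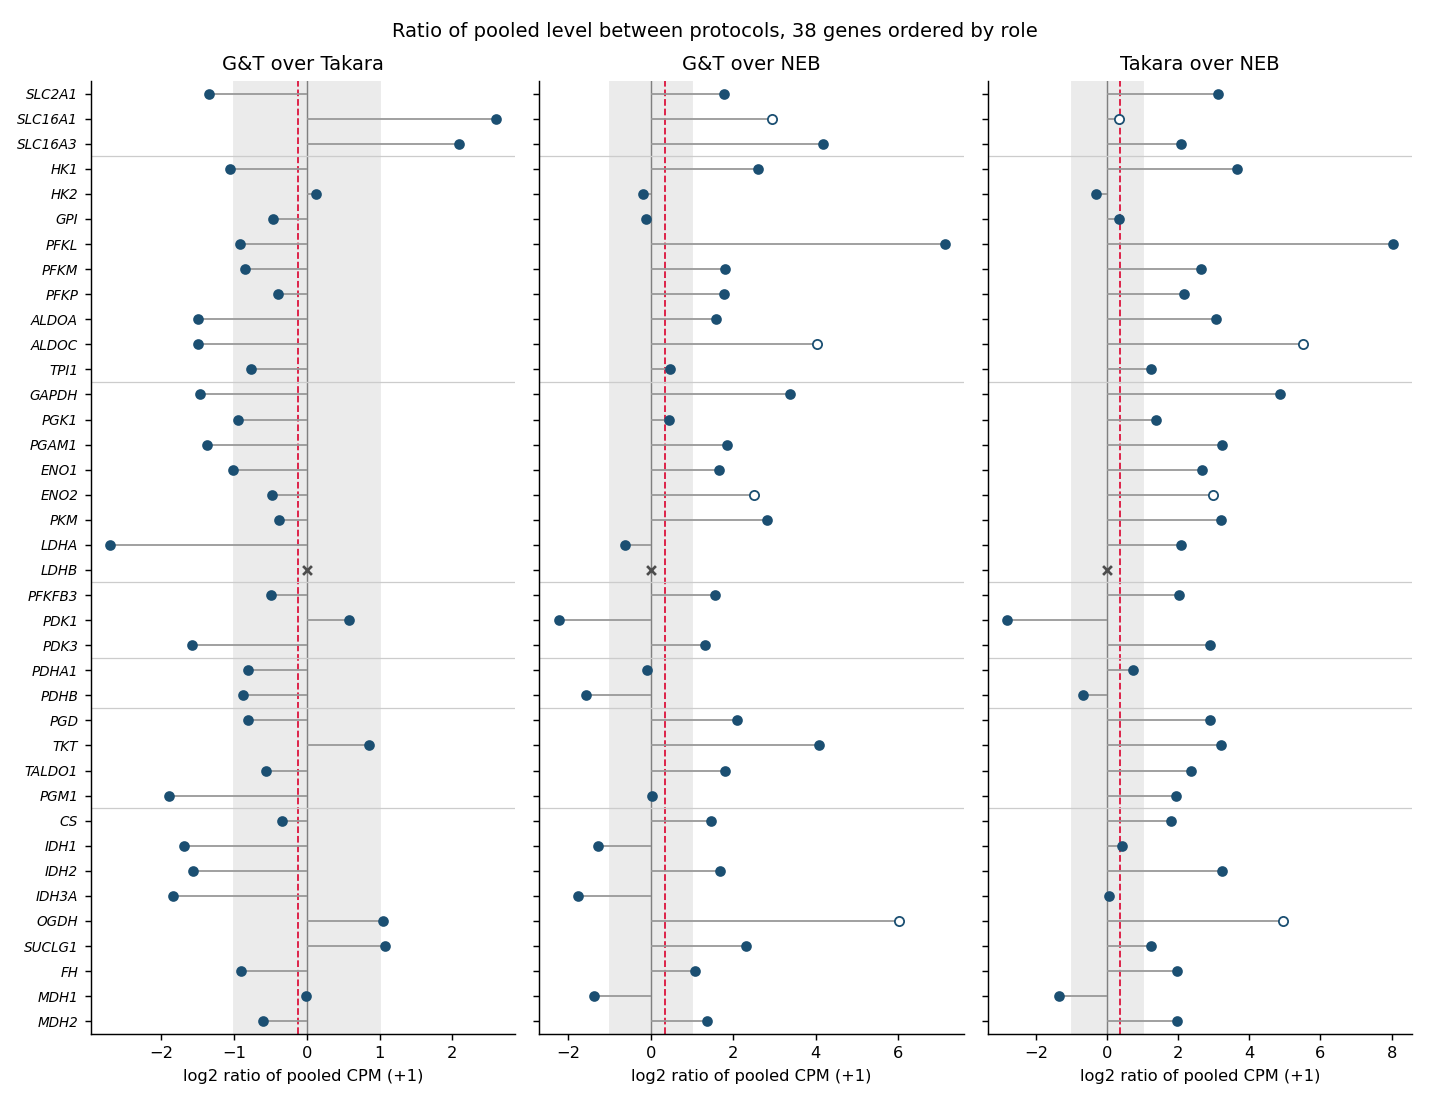
Log2 ratio of pooled CPM, with 1 CPM added, for the 38 genes in each pair of protocols, ordered by role with grey lines between role groups. Grey shading marks less than 2-fold, the dashed red line is the median of all 8229 genes tested (-0.12, 0.34 and 0.35), open points have no read in 1 protocol and crosses have none in both. PFKL stands farthest to the right in both comparisons with NEB, PDK1 farthest to the left.

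The difference from NEB was graded by base composition. The canonical transcripts of the 38 genes were richer in G and C (median 52.4% of bases, from 39.5% in PDK1 to 64.7% in SLC16A3) than those of all tested genes (median 46.4%), and glycolysis (54.0%) was richer than the TCA cycle (46.9%). Over the 35 genes at 10 CPM or more, Spearman's rho between this GC content and the log2 ratio was 0.69 for Takara over NEB and 0.77 for G&T over NEB, against 0.67 and 0.65 over 8201 genes. For G&T over Takara it was 0.20 over the 35 genes and -0.22 over all genes. These are descriptions across genes, which are not replicates and share the same libraries. Among transcripts with up to 45% G and C, the median log2 ratio of Takara over NEB was 0.23 for 8 genes of the set and -0.75 for all genes. Between 45% and 50% it was 1.52 for 4 genes of the set against 0.33. Between 50% and 55% it was 2.503 for 12 genes of the set against 1.37, and between 55% and 60% it was 3.22 for 8 genes against 2.56. Above 60%, the 3 genes of the set had a median of 3.07 and all genes 3.82. G&T over NEB differed in the lowest range, where the same 8 genes had a median of -1.33 and all genes -0.62. In the ranges above it, in rising order, the set had 1.39, 1.71, 3.10 and 4.17 and all genes 0.27, 1.16, 2.16 and 3.25. The part of base composition in the differences between protocols was not tested.

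Coding sequence of the genes at both ends of the ratios shows how far their letters differ. Shown are the last 120 coding bases, stop codon included, of the 2 genes highest in Takara over NEB among those with a read in each protocol (PFKL and GAPDH) and of the 2 lowest (MDH1 and PDK1), from the canonical transcripts of GENCODE 44 on GRCh38, 5′ to 3′, with G and C in capitals.
PFKL: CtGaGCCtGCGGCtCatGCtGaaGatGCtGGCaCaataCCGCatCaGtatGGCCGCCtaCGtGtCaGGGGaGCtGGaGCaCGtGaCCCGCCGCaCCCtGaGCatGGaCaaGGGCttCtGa
GAPDH: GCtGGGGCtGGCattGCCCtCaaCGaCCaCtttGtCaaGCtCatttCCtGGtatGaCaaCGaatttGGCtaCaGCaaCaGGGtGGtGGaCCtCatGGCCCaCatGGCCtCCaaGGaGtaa
MDH1: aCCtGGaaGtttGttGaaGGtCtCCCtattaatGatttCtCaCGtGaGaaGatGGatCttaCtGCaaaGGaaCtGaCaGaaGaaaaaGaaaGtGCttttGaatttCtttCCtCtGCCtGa
PDK1: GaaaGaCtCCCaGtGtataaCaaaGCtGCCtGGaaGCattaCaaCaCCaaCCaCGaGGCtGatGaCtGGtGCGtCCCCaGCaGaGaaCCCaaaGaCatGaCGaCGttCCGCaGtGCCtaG
Of these 120 bases, 74 are G or C in PFKL, 65 in GAPDH and 47 in MDH1. PDK1 has 64, so its stretch does not stand for its whole transcript, of which 39.5% is G or C, with 48.0% in the 1311 coding bases. The window was taken for display and no motif was searched. PFKL lies on chromosome 21 (chr21:44300051-44327376, plus strand), GAPDH on chromosome 12 (chr12:6534512-6538374, plus strand), and MDH1 (chr2:63588609-63607197, plus strand) and PDK1 (chr2:172555373-172608669, plus strand) on chromosome 2.

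**Figure D3:**
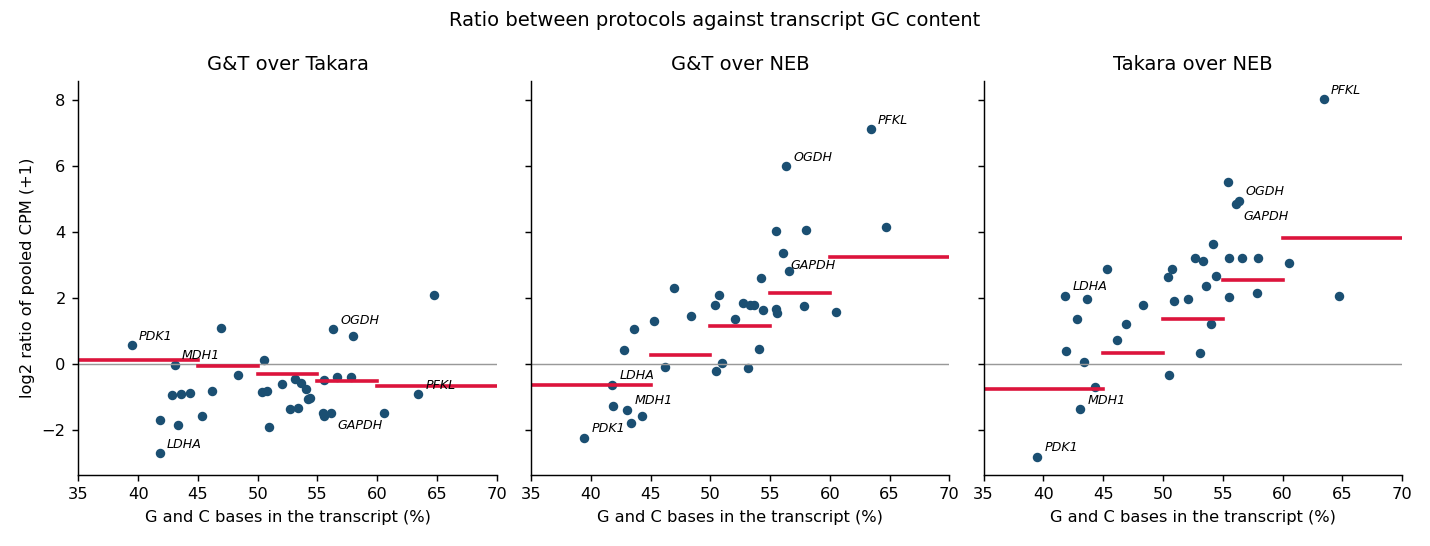
Log2 ratio of pooled CPM, with 1 CPM added, against the percent of G and C in the canonical transcript for the 35 genes with a mean of at least 10 CPM. Red lines are the medians of all genes tested in each GC range, drawn up to the plot's edge for the outer ranges. Against NEB both the genes of the set and the red lines climb from left to right, and for G&T over Takara the red lines descend from 0.12 to -0.65.

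The transporters had few reads. SLC2A1, the glucose transporter GLUT1, stood at 0, 13.5 and 60.7 CPM in G&T (pooled 15.4 CPM, 12.98 to 18.1), 0, 26.2 and 126 CPM in Takara (pooled 40.5 CPM, 36.9 to 44.3) and 0, 0 and 39.6 CPM in NEB (pooled 3.76 CPM, 2.54 to 5.37). A single NEB cell, C2, held all of its NEB reads, and without that cell the log2 ratio of Takara over NEB went from 3.12 to 5.37 and of G&T over NEB from 1.78 to 4.03. Pooled SLC2A1 was 2.63-fold (2.18 to 3.19) higher in Takara than in G&T with overlapping cells, and without Takara cell C1 this log2 ratio of G&T over Takara, -1.34, came to -0.92. SLC16A3, the lactate exporter MCT4, was highest in G&T instead of Takara and also lowest in NEB, with 7.71, 26.6 and 61.2 CPM in G&T (pooled 30.5 CPM, 27.1 to 34.2), 1.13, 6.19 and 13.4 CPM in Takara (pooled 6.401 CPM, 5.03 to 8.02) and 0, 0 and 8.399 CPM in NEB (pooled 0.752 CPM, 0.276 to 1.64). G&T was 4.77-fold (3.69 to 6.23) above Takara, although the cells overlapped, and its only NEB reads were in cell E1, without which the log2 ratio over NEB went from 4.17 to 4.98 for G&T and from 2.08 to 2.89 for Takara. SLC16A1, the related carrier MCT1, had 0, 0 and 56.98 CPM in G&T (pooled 6.63 CPM, 5.096 to 8.48), 0, 0 and 3.096 CPM in Takara (pooled 0.256 CPM, 0.0528 to 0.748) and no read in NEB. It had reads in 4 G&T cells and 3 reads in 1 Takara cell, a ratio of 25.9-fold (8.47 to 129). Its G&T level was at least 17.6-fold above what 3 reads over the NEB cells would give. Most of those reads were in G&T cell D1, without which the log2 ratio went from 2.60 to 1.61 over Takara and from 2.93 to 1.94 over NEB.

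Upper glycolysis begins with hexokinase, which traps glucose as its phosphate. HK1 stood at 72.1, 126 and 260.4 CPM in G&T (pooled 149.8 CPM, 142 to 158), 202, 276 and 446 CPM in Takara (pooled 311 CPM, 301 to 322) and 0, 3.04 and 179 CPM in NEB (pooled 23.8 CPM, 20.6 to 27.5). Every Takara cell was above every NEB cell, and the pooled level was 13.1-fold (11.3 to 15.2) higher, whereas G&T and Takara overlapped and differed by 2.08-fold (1.96 to 2.21). That last difference lay at the limit: the log2 ratio of G&T over Takara was -1.05 and came to -0.99 without G&T cell A2 and -0.99 without Takara cell B1. HK1 reads in NEB rested on cell A1, without which the log2 ratio went from 3.65 to 4.87 for Takara and from 2.60 to 3.81 for G&T. HK2, the hexokinase often induced in tumours, was low in each protocol, with 0, 4.29 and 36.8 CPM in G&T (pooled 11.4 CPM, 9.33 to 13.7), 0, 2.099 and 68.05 CPM in Takara (pooled 10.3 CPM, 8.57 to 12.3) and 0, 1.26 and 105 CPM in NEB (pooled 13.2 CPM, 10.8 to 15.9). Its pooled levels of 11.4 CPM in G&T, 10.3 CPM in Takara and 13.2 CPM in NEB were within 2-fold of each other. The ratio turned on single cells: without Takara cell G1 the log2 ratio of G&T over Takara went from 0.13 to 1.51 and of Takara over NEB from -0.32 to -1.70. Without NEB cell E2 it went from -0.20 to 1.47 for G&T over NEB and to 1.34 for Takara over NEB. GPI, which isomerises glucose phosphate to fructose phosphate, was also within 2-fold in all 3 pairs, with pooled levels of 149.7 CPM in G&T, 207 CPM in Takara and 164 CPM in NEB.

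Phosphofructokinase makes the committed step. PFKL, its liver-type gene, showed the widest difference of the set. PFKL stood at 29.04, 202 and 327 CPM in G&T (pooled 156 CPM, 148 to 164), 184, 319 and 406 CPM in Takara (pooled 296 CPM, 286 to 306) and 0, 0 and 1.47 CPM in NEB (pooled 0.125 CPM, 0.00318 to 0.699). All 11 G&T and all 11 Takara cells were above all NEB cells, among which cell B1 held the only read. With that 1 read the ratio over NEB was 1244-fold (223 to 49163) for G&T and 2359-fold (423 to 93219) for Takara. These wide intervals cover counting error only, so the size of the ratio is at best loosely known. Between G&T and Takara the log2 ratio was -0.92 with overlapping cells, and -1.06 without G&T cell A2. PFKM, the muscle-type gene, stood at 0, 59.98 and 129 CPM in G&T (pooled 56.2 CPM, 51.5 to 61.2), 27.04, 95 and 168 CPM in Takara (pooled 102 CPM, 96.3 to 108) and 0, 0 and 80.03 CPM in NEB (pooled 15.6 CPM, 12.9 to 18.5). Its Takara level was 6.56-fold (5.45 to 7.96) and its G&T level 3.61-fold (2.97 to 4.43) above NEB, with overlap in both, and without G&T cell B1 the log2 ratio of G&T over Takara went from -0.85 to -1.08. PFKP, the platelet-type gene, stood at 9.12, 52.01 and 187 CPM in G&T (pooled 72.9 CPM, 67.6 to 78.6), 30.4, 84 and 288 CPM in Takara (pooled 96.2 CPM, 90.7 to 102) and 0, 0 and 132 CPM in NEB (pooled 20.6 CPM, 17.5 to 23.97). NEB reads of PFKP came from 2 cells, A1 and C1, and the log2 ratio of 2.17 for Takara over NEB came to 3.09 without the former and 2.90 without the latter. For G&T over NEB the value of 1.78 came to 2.70 and 2.51.

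Aldolase splits the fructose bisphosphate, and ALDOA was among the best covered genes of the set. ALDOA stood at 446, 738 and 1642 CPM in G&T (pooled 848 CPM, 829 to 866), 1391, 2367 and 3114 CPM in Takara (pooled 2393 CPM, 2365 to 2421) and 40.6, 231 and 779 CPM in NEB (pooled 285 CPM, 273 to 297). Each Takara cell was above each NEB cell with a ratio of 8.398-fold (8.05 to 8.77), and pooled Takara was 2.82-fold (2.75 to 2.89) above G&T with overlapping cells. ALDOC, the brain-type aldolase, was read in every G&T and every Takara cell, with 1.04, 13.6 and 37.98 CPM in G&T (pooled 15.3 CPM, 12.9 to 17.96), 15.9, 45.3 and 97.3 CPM in Takara (pooled 44.9 CPM, 41.1 to 48.9) and no read in NEB. With 3 reads among the 7973692 NEB reads on genes, a gene would stand at 0.376 CPM. Pooled ALDOC was 40.6-fold above that level in G&T and 119-fold in Takara. The lower ends of the exact intervals of its ratios over NEB were 32.6-fold and 96.7-fold. Takara was 2.94-fold (2.44 to 3.56) above G&T. TPI1, which interconverts the triose phosphates, stood at 113, 351 and 534 CPM in G&T (pooled 346 CPM, 334 to 358), 415, 613 and 832 CPM in Takara (pooled 586 CPM, 572 to 600.1) and 0, 242 and 773 CPM in NEB (pooled 250.4 CPM, 239.6 to 262). It was higher in Takara than in NEB (2.34-fold, 2.23 to 2.46), with overlap since NEB cell A1 reached 773 CPM, and the G&T levels lay between.

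Lower glycolysis opens with GAPDH, the enzyme often taken as a reference gene. GAPDH stood at 175, 419.8 and 1064 CPM in G&T (pooled 477 CPM, 463 to 491), 1017, 1239 and 2040.3 CPM in Takara (pooled 1326 CPM, 1305 to 1347) and 0, 35.7 and 161 CPM in NEB (pooled 44.8 CPM, 40.2 to 49.7). All NEB cells were below all cells of the other protocols, by 10.7-fold (9.57 to 11.9) against G&T and 29.6-fold (26.7 to 32.98) against Takara. Takara was 2.78-fold (2.69 to 2.87) above G&T, where 1 or more cells overlapped. PGK1, the first ATP-forming step, stood at 48.8, 369 and 637 CPM in G&T (pooled 349 CPM, 337 to 361), 385, 679.9 and 965 CPM in Takara (pooled 676 CPM, 661 to 691) and 0, 319 and 409 CPM in NEB (pooled 259 CPM, 248 to 270.0). It was 2.61-fold (2.49 to 2.74) higher in Takara than in NEB with overlapping cells. For G&T over Takara its log2 ratio of -0.95 was short of the limit and passed it without G&T cell A1 (-1.07), G&T cell D2 (-1.05) or Takara cell A2 (-1.01).

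PGAM1, the phosphoglycerate mutase, had 118, 297 and 481 CPM in G&T (pooled 293 CPM, 283 to 304), 612, 769.7 and 879.7 CPM in Takara (pooled 759 CPM, 743 to 775) and 0, 70.8 and 184 CPM in NEB (pooled 80.5 CPM, 74.4 to 86.99). Takara cells lay above all others, by 2.59-fold (2.48 to 2.699) against G&T and 9.42-fold (8.695 to 10.2) against NEB. ENO1, the common enolase, was the gene with most reads in G&T, at 571, 1101 and 1981 CPM in G&T (pooled 1147 CPM, 1125 to 1168), 1793, 2155 and 3949.9 CPM in Takara (pooled 2324 CPM, 2296 to 2352) and 40.6, 329.7 and 945 CPM in NEB (pooled 366 CPM, 353 to 379.6). Takara lay above NEB without overlap (6.35-fold, 6.11 to 6.597). Its log2 ratio of G&T over Takara, -1.02, was short of 2-fold without G&T cell A2, D1, E1 or H1 (-0.96, -0.97, -0.99 and -0.95) and without Takara cell A1 or E2 (-0.99 and -0.93). ENO2, the neuronal enolase, had 0, 1.499 and 14.9 CPM in G&T (pooled 4.63 CPM, 3.37 to 6.22), 0, 0 and 26.8 CPM in Takara (pooled 6.83 CPM, 5.41 to 8.498) and no read in NEB. It was read in 6 G&T cells and 4 Takara cells, at least 12.3-fold and at least 18.1-fold above the level of 3 NEB reads.

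PKM, the pyruvate kinase gene, was within 2-fold between G&T and Takara, at 397, 603 and 715 CPM in G&T (pooled 578 CPM, 563 to 593), 524, 729 and 1172 CPM in Takara (pooled 757 CPM, 741 to 772) and 30.2, 78.9 and 149.8 CPM in NEB (pooled 81.02 CPM, 74.9 to 87.5). Both protocols had every cell above every NEB cell, by 7.13-fold (6.57 to 7.75) for G&T and 9.34-fold (8.62 to 10.1) for Takara. LDHA, which turns pyruvate into lactate, behaved unlike its neighbours. LDHA stood at 43.6, 180.0 and 501 CPM in G&T (pooled 214 CPM, 205 to 224), 981, 1346 and 1994 CPM in Takara (pooled 1403 CPM, 1382 to 1425) and 53.99, 308 and 644 CPM in NEB (pooled 332 CPM, 319.6 to 345). Every Takara cell was above every G&T and NEB cell, by 6.54-fold (6.25 to 6.86) over G&T, the widest gap between these protocols among genes at 10 CPM or more in the set, and by 4.23-fold (4.05 to 4.404) over NEB. G&T was lower than NEB by a log2 ratio of -0.63, with overlapping cells. LDHB (ENSG00000111716), the heart-type lactate dehydrogenase on chromosome 12 (chr12:21635342-21757857, minus strand), had no read in any of the 33 kept cells. The level of 3 reads would be 0.316 CPM in G&T, 0.256 CPM in Takara and 0.376 CPM in NEB. Its 3 annotated pseudogenes had 0 reads as well. In GENCODE 44, 33.4% of the exon bases of LDHB are shared with another annotated gene, and neither the annotation release nor the strand setting of the counting is given in the sources used here.

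The 3 regulators did not share a direction. PFKFB3, which makes the activator of phosphofructokinase, had 24.8, 53.1 and 236 CPM in G&T (pooled 77.7 CPM, 72.2 to 83.5), 8.701, 104 and 285 CPM in Takara (pooled 109 CPM, 104 to 116) and 0, 21.01 and 68.4 CPM in NEB (pooled 25.96 CPM, 22.5 to 29.7). Its level over NEB was 2.99-fold (2.56 to 3.51) in G&T and 4.21-fold (3.64 to 4.91) in Takara, with overlap. PDK1, a kinase that switches pyruvate dehydrogenase off, was 1 of the few genes higher in NEB, at 0, 10.3 and 42.5 CPM in G&T (pooled 14.1 CPM, 11.8 to 16.7), 0, 7.48 and 23.7 CPM in Takara (pooled 9.13 CPM, 7.48 to 11.04) and 0, 1.42 and 261 CPM in NEB (pooled 70.2 CPM, 64.5 to 76.3). NEB was 7.69-fold (6.24 to 9.55) above Takara and 4.98-fold (4.12 to 6.06) above G&T in pooled reads, with 5 of 11 NEB cells above every G&T and Takara cell and 5 without a read. PDK3, another such kinase, had 0, 15.2 and 79.6 CPM in G&T (pooled 22.4 CPM, 19.5 to 25.6), 16.6, 74.6 and 110.0 CPM in Takara (pooled 69.1 CPM, 64.5 to 74.1) and 0, 0 and 101 CPM in NEB (pooled 8.403 CPM, 6.51 to 10.7). It was 3.08-fold (2.65 to 3.603) higher in Takara than in G&T with overlapping cells. NEB cell A1 held all NEB reads of PDK3, and without it the log2 ratio went from 2.90 to 6.13 for Takara and from 1.32 to 4.55 for G&T. Without G&T cell B1 the latter came to 0.82, short of 2-fold.

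PDHA1 and PDHB encode the alpha and beta subunits of the first pyruvate dehydrogenase enzyme. PDHA1 stood at 111, 204 and 307 CPM in G&T (pooled 209 CPM, 199 to 218), 269, 353 and 508 CPM in Takara (pooled 366 CPM, 356 to 378) and 85.9, 187 and 501 CPM in NEB (pooled 222 CPM, 212 to 233), within 2-fold in all 3 pairs. PDHB stood at 27.3, 178 and 298 CPM in G&T (pooled 144 CPM, 136 to 152), 132, 262 and 383 CPM in Takara (pooled 265 CPM, 256 to 274) and 142, 407 and 897 CPM in NEB (pooled 428 CPM, 413 to 442). NEB was 2.97-fold (2.79 to 3.16) above G&T and 1.61-fold (1.54 to 1.69) above Takara, with overlapping cells in both. For G&T over Takara the log2 ratio of -0.88 came to -1.02 without G&T cell A2.

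In the pentose phosphate pathway PGD, which oxidises phosphogluconate and forms NADPH, stood at 78.9, 156 and 263 CPM in G&T (pooled 169 CPM, 161 to 178), 203, 317 and 347 CPM in Takara (pooled 297 CPM, 287 to 307) and 0, 33.4 and 113 CPM in NEB (pooled 39.1 CPM, 34.9 to 43.7). Takara was 7.59-fold (6.76 to 8.55) above NEB without overlap, and G&T 4.33-fold (3.83 to 4.899) above NEB with overlap. TKT, the transketolase, was highest in G&T, at 169, 289 and 479.5 CPM in G&T (pooled 310.4 CPM, 299 to 322), 110.0, 155 and 323 CPM in Takara (pooled 171 CPM, 164 to 179) and 0, 0 and 126 CPM in NEB (pooled 17.6 CPM, 14.8 to 20.7). All G&T cells were above all NEB cells (17.7-fold, 14.9 to 21.1), while Takara overlapped NEB because of NEB cell A1. Without that cell the log2 ratio went from 4.07 to 5.17 for G&T and from 3.21 to 4.31 for Takara. For G&T over Takara it was 0.86, and 1.02 without Takara cell G1. TALDO1, the transaldolase, had 142, 189 and 344 CPM in G&T (pooled 215 CPM, 206 to 225), 228, 319 and 426 CPM in Takara (pooled 319 CPM, 309 to 329) and 0, 56.8 and 136 CPM in NEB (pooled 60.95 CPM, 55.7 to 66.6). Every NEB cell was below every cell of G&T (3.53-fold, 3.19 to 3.903) and Takara (5.23-fold, 4.76 to 5.76). PGM1, which links glycogen and glucose phosphate, had 0, 11.9 and 48 CPM in G&T (pooled 16.9 CPM, 14.4 to 19.8), 23.3, 62.5 and 116 CPM in Takara (pooled 65.7 CPM, 61.2 to 70.5) and 0, 0 and 77.7 CPM in NEB (pooled 16.6 CPM, 13.9 to 19.6). Takara was 3.88-fold (3.27 to 4.62) above G&T and 3.97-fold (3.297 to 4.81) above NEB, each with overlap, and without NEB cell E2 the log2 ratio over NEB went from 1.93 to 2.59.

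The TCA cycle held genes of every pattern. CS, the citrate synthase that opens the cycle, stood at 128, 368 and 568 CPM in G&T (pooled 327 CPM, 316 to 339), 326, 401 and 503 CPM in Takara (pooled 415 CPM, 404 to 427) and 0, 111 and 381 CPM in NEB (pooled 118 CPM, 111 to 126). Pooled CS was 2.77-fold (2.57 to 2.98) in G&T and 3.52-fold (3.28 to 3.78) in Takara over NEB, with overlap in both. IDH1, the cytosolic NADP-linked isocitrate dehydrogenase, was lowest in G&T, at 3.98, 22.3 and 65.7 CPM in G&T (pooled 29.5 CPM, 26.1 to 33.1), 24.3, 101 and 235 CPM in Takara (pooled 97.2 CPM, 91.6 to 103) and 0, 89.9 and 179 CPM in NEB (pooled 73.2 CPM, 67.4 to 79.4). Takara was 3.298-fold (2.89 to 3.77) and NEB 2.49-fold (2.15 to 2.88) above G&T, with overlapping cells. IDH2, its mitochondrial counterpart, had 90.9, 310.3 and 562 CPM in G&T (pooled 281 CPM, 271 to 292), 414, 823 and 1307 CPM in Takara (pooled 830.4 CPM, 814 to 847) and 26.4, 68.4 and 205 CPM in NEB (pooled 87.4 CPM, 81.04 to 94.1). Takara cells were above all NEB cells (9.5-fold, 8.796 to 10.3) and on pooled reads 2.95-fold (2.83 to 3.08) above G&T, with overlap. IDH3A, a subunit of the NAD-linked enzyme of the cycle, followed IDH1 rather than IDH2, at 0, 13.3 and 68.97 CPM in G&T (pooled 19.2 CPM, 16.5 to 22.2), 28.3, 77.4 and 125 CPM in Takara (pooled 71.1 CPM, 66.3 to 76.1) and 0, 62.1 and 216 CPM in NEB (pooled 67.97 CPM, 62.4 to 73.9). Takara was 3.71-fold (3.16 to 4.38) and NEB 3.55-fold (2.99 to 4.22) above G&T, with overlapping cells.

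OGDH, the first enzyme of the oxoglutarate dehydrogenase complex, was read in all G&T and all Takara cells, with 10.5, 43.1 and 146 CPM in G&T (pooled 63.4 CPM, 58.4 to 68.6), 10.3, 32.8 and 49.8 CPM in Takara (pooled 30.04 CPM, 26.99 to 33.4) and no read in NEB. It was at least 168-fold higher in G&T and at least 79.9-fold higher in Takara than 3 NEB reads would give. G&T was 2.11-fold (1.85 to 2.41) above Takara with overlap, a log2 ratio of 1.05 that came under the limit without G&T cell A2 (0.88), C1 (0.94) or D1 (0.95) or Takara cell E1 (0.96) or E2 (0.99). SUCLG1, a subunit of the succinate-CoA ligase, was also highest in G&T, at 71.4, 216 and 477 CPM in G&T (pooled 258 CPM, 248 to 268), 73.7, 106 and 189 CPM in Takara (pooled 121 CPM, 115 to 128) and 0, 31.7 and 178 CPM in NEB (pooled 51.2 CPM, 46.3 to 56.4). G&T was 2.13-fold (1.99 to 2.27) above Takara and 5.04-fold (4.53 to 5.61) above NEB, with overlap. The log2 ratio over Takara of 1.08 came to 0.90 without G&T cell D2 and 0.96 without G&T cell E2.

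FH, the fumarase, stood at 15.6, 80.97 and 139 CPM in G&T (pooled 85.9 CPM, 80.1 to 91.99), 109.8, 163 and 227 CPM in Takara (pooled 162 CPM, 154 to 169) and 0, 3.06 and 239 CPM in NEB (pooled 40.3 CPM, 35.97 to 44.9). Of its NEB cells E1 had the highest level, followed by H2 with 119 CPM and A1 with 82.5 CPM. With it the log2 ratio of G&T over NEB was 1.07 and without it 2.00, while leaving out any 1 of NEB cells A2, B1, C1, C2, D1, D2, E2 and G2 gave 0.89 to 0.97 and leaving out G&T cell D2 gave 0.95. For Takara over NEB the value went from 1.98 to 2.91 without NEB cell E1. For G&T over Takara it was -0.90, and -1.03 without G&T cell D2.

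The malate dehydrogenases of cytosol and mitochondrion went opposite ways. MDH1, the cytosolic gene, stood at 154, 346 and 623 CPM in G&T (pooled 378 CPM, 366 to 390.5), 302, 391 and 510.4 CPM in Takara (pooled 383 CPM, 371 to 394) and 309, 1059 and 1642 CPM in NEB (pooled 986 CPM, 964 to 1008). It had the highest pooled level of the set in NEB, 2.61-fold (2.51 to 2.72) above G&T and 2.58-fold (2.48 to 2.67) above Takara, with overlapping cells, and G&T and Takara were alike within 1.01-fold (0.969 to 1.06). MDH2, the mitochondrial gene, had 319, 817 and 1009.7 CPM in G&T (pooled 707 CPM, 689.7 to 724), 821, 1081 and 1527 CPM in Takara (pooled 1078 CPM, 1059 to 1097) and 52.9, 259 and 677 CPM in NEB (pooled 275 CPM, 263 to 287). Every Takara cell was above every NEB cell (3.92-fold, 3.75 to 4.11) and pooled G&T was 2.57-fold (2.45 to 2.699) above NEB with overlap. The transcript of MDH1 is 43.1% and that of MDH2 52.1% G and C.

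**Figure D4:**
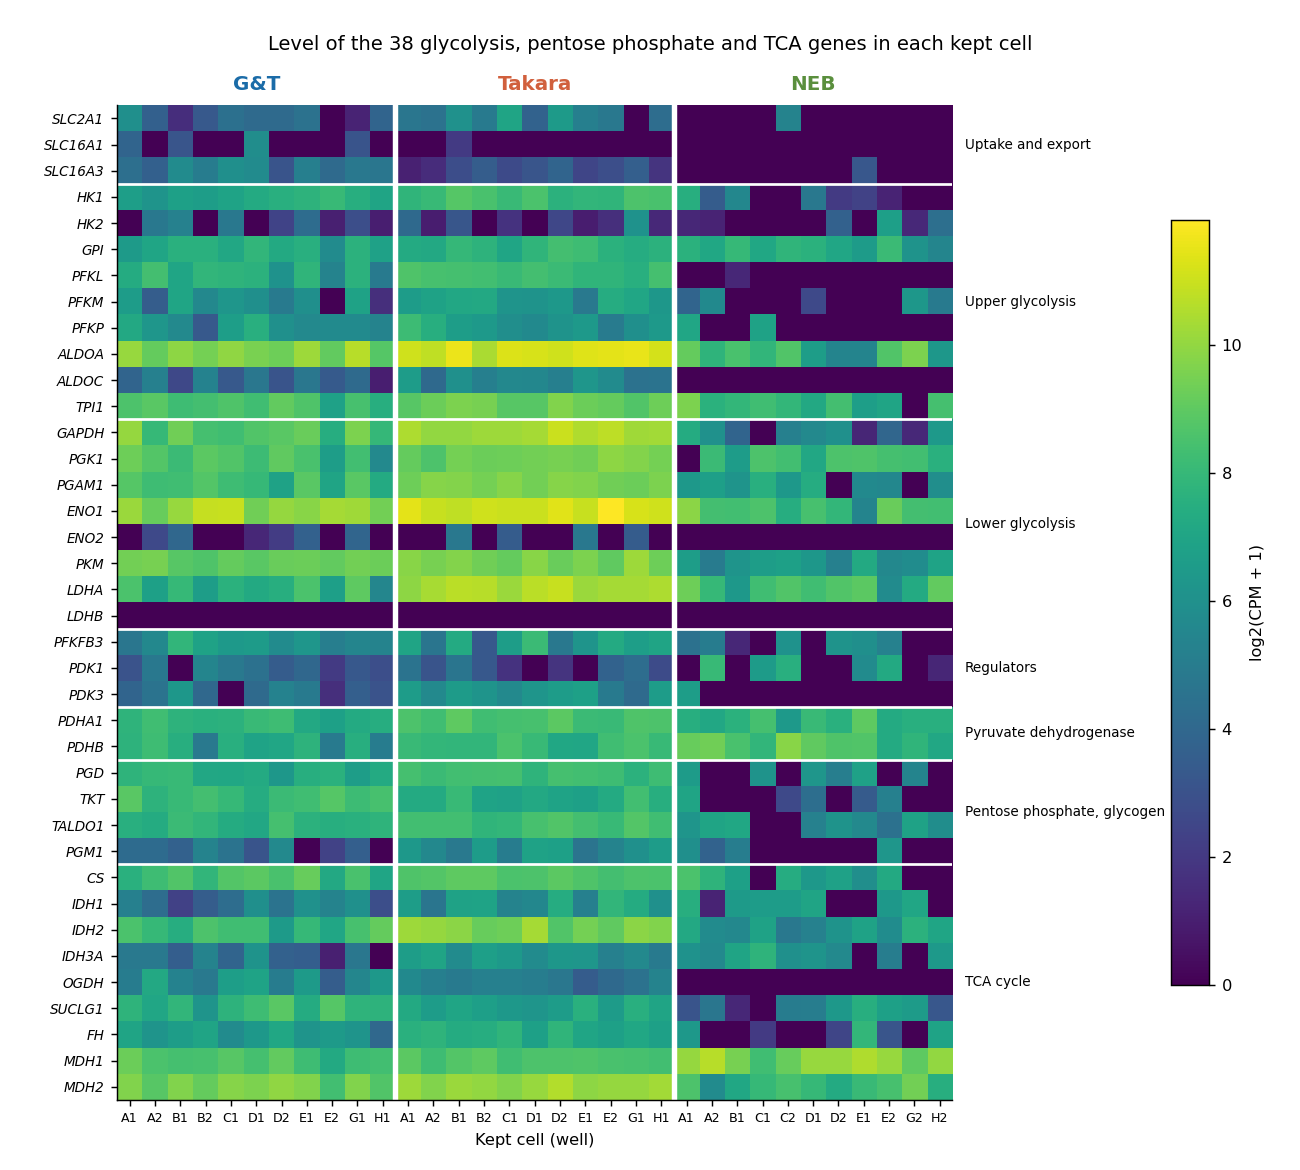
Level of each of the 38 genes (rows, by role) in each of the 33 kept cells (columns, named by well), as log2(CPM + 1) from dark (no read) to yellow. The Takara block is the most even, the NEB block is dark for PFKL, ALDOC, ENO2, OGDH and the transporters, and LDHB is dark in all cells.

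To compare levels between genes, pooled CPM was divided by the merged exon length of each gene in kilobases (RPKM). The highest gene of the set was ALDOA in G&T (221 RPKM, followed by ENO1 with 219.8 RPKM) and in Takara (625 RPKM, followed by GAPDH with 553 RPKM), and MDH1 in NEB (198 RPKM, followed by TPI1 with 92.8 RPKM). GAPDH had rank 3 in G&T and rank 2 in Takara, but rank 13 in NEB. The leading TCA cycle gene was MDH2 in G&T (194 RPKM), IDH2 in Takara (298 RPKM) and MDH1 in NEB. Over the length of the canonical transcript instead, ENO1 led G&T (644 RPKM) and MDH2 led the Takara TCA genes (497 RPKM), so ranks of close genes depend on the length used.

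The make-up of the hexokinase, phosphofructokinase, isocitrate and malate dehydrogenase families was closer between G&T and Takara than between either and NEB. HK1 made up 91.9% of hexokinase reads per kilobase in G&T and 96.3% in Takara, and 60.9% of those in NEB. The NEB value hung on cell A1 and cell E2: leaving out 1 cell at a time gave 37.0% to 86.7%. PFKL made up 50.5% of phosphofructokinase in G&T and 55.6% in Takara, and 0.292% in NEB, where PFKP (55.1%) and PFKM (44.7%) made up the rest. Only 7 of 11 NEB cells had a read on this family. PFKM was highest in 4 of them, PFKP in 2 and PFKL in 1, so the pooled NEB shares of PFKP and PFKM rest on few cells. IDH2 made up 94.1% of the NADP-linked isocitrate dehydrogenases in G&T and 93.5% in Takara, and 66.8% of those in NEB. By merged exon length, MDH2 was the main malate dehydrogenase in all 11 G&T and all 11 Takara cells. Its pooled share of reads per kilobase was 71.9% and 79.4% there, and NEB had 27.6%, with MDH2 ahead in 2 of 11 cells. Over canonical lengths, the pooled share was 52.8% for G&T cells and 62.7% for Takara cells. Single cells were not recounted with these lengths, 1296 bases for MDH1 and 2170 bases for MDH2. The G&T count would be lower: cell A1, with 623 CPM of MDH1 and 817 CPM of MDH2, would have MDH1 as main gene. ALDOA and ENO1 made up at least 97.3% of their families in each protocol, and LDHA all reads of the lactate dehydrogenase pair. SLC16A3 made up 75.98% of the lactate carrier pair in G&T, 94.5% in Takara and all of it in NEB, where the pair had only 6 reads in 1 cell. Of the PDK1 and PDK3 pair PDK1 had 42.5% in G&T and 13.4% in Takara, whereas it had 90.8% in NEB, so here G&T and Takara differed too. With canonical lengths these came to 7.22%, 1.61% and 50.8%, as the canonical transcript of PDK1 is 14072 bases long and that of PDK3 1741 bases.

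**Figure D5:**
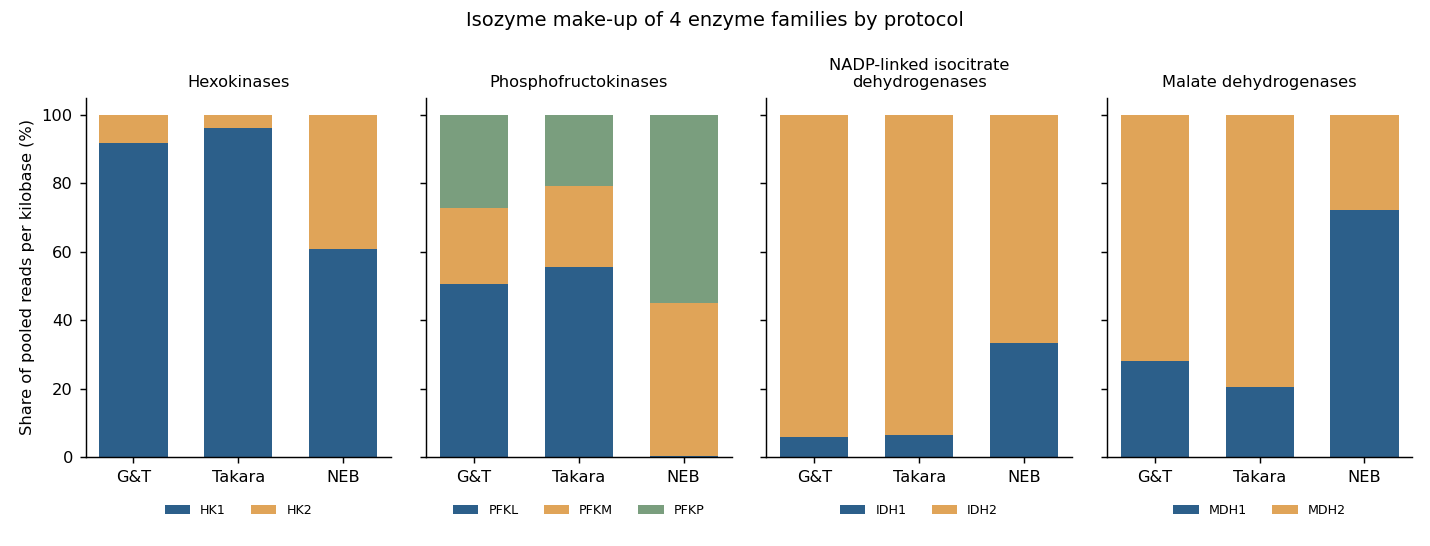
Stacked bars of the share of each isozyme in the pooled reads per kilobase of merged exons of 4 enzyme families in 11 kept cells of each protocol. In each of the 4 families the G&T and Takara bars are closer to each other than to NEB, where the PFKL part is 0.292% and MDH1 takes 72.4% of the malate dehydrogenase bar.

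A G&T cell had a read on 35 ± 1.34 of the 38 genes (SD over 11 cells, 33 to 37), a Takara cell on 35 ± 1 (33 to 37) and an NEB cell on 22.8 ± 2.93 (18 to 28). In G&T 28 of the genes were read in all 11 cells, in Takara 32 and in NEB 10, which is 73.7%, 84.2% and 26.3% of the set against 65.9%, 76.5% and 16.6% of all genes at 10 CPM or more. NEB cells read on average 60.05% of the 38 genes and 54.1% of all genes at 10 CPM or more, G&T cells 92.1% and 93.3%, and Takara cells 92.1% and 95.5%. The 5 genes without a read in NEB were SLC16A1, ALDOC, ENO2, LDHB and OGDH.

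Among themselves the cells varied least in Takara. The median coefficient of variation of CPM over cells was 29.98% for the genes of the set in Takara, 50.6% in G&T and as much as 97.6% in NEB, against 51.3%, 70.7% and 145% for all genes at 10 CPM or more. CS (13.7%) and PGAM1 (13.99%) were the most even in Takara and PKM (17.6%) in G&T, where Poisson counting alone would give 4.78%, 3.55% and 4.55%. Over the 11 cells of a protocol, which share plate and run, the glycolysis and TCA shares correlated with Pearson's r of 0.56 in G&T (Spearman's rho 0.48), 0.14 in Takara (0.30) and 0.27 in NEB (-0.14). Without the 2 cells farthest from the median r was 0.15, 0.01 and -0.37, so no relation held across the protocols.

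Another 65 genes of the same pathways were taken from a wider list. Of these 21 were higher in Takara than in NEB and 9 lower, 23 higher in G&T than in NEB and 10 lower, and 7 higher in G&T than in Takara and 16 lower. As shares of the 65 genes, 32.3% were higher and 13.8% lower in Takara over NEB and 35.4% higher and 15.4% lower in G&T over NEB. These lie below the shares of all genes given above, but the 2 lists were not filtered alike. Only 36 of the 65 reached the mean of 10 CPM that all background genes did. In Takara over NEB 17 of the 65, and in G&T over NEB 15, had no read in both protocols and could not be called. In G&T over Takara 10.8% were higher and 24.6% lower. Their median log2 ratios were 0.00, 0.00 and -0.23, counting as 0 the genes that had no read in both protocols. The 5 with the highest mean pooled level were BSG, SDHA, SDHD, SDHB and DLD. BSG, the chaperone of the lactate transporters, had 91, 390.0 and 610.3 CPM in G&T (pooled 350.0 CPM, 338 to 362), 726, 868 and 1052 CPM in Takara (pooled 862 CPM, 845 to 879) and 0, 19.9 and 180.1 CPM in NEB (pooled 38.9 CPM, 34.7 to 43.5), with each Takara cell above each NEB cell. SDHA, the flavoprotein of succinate dehydrogenase, had pooled levels of 237 CPM in G&T, 584 CPM in Takara and 145 CPM in NEB. SDHB, its iron-sulfur subunit, had 151 CPM in G&T, 308 CPM in Takara and 286 CPM in NEB. SDHD, its membrane anchor, ran the other way with 5.23, 67.04 and 121 CPM in G&T (pooled 55.2 CPM, 50.5 to 60.1), 134, 166 and 239 CPM in Takara (pooled 171 CPM, 164 to 179) and 190.4, 533 and 1035 CPM in NEB (pooled 551 CPM, 535 to 567). NEB was 9.98-fold (9.12 to 10.95) above G&T in pooled reads of SDHD, with every NEB cell above every G&T cell. DLD, the shared dihydrolipoyl dehydrogenase, also had its highest pooled level in NEB (69.4 CPM in G&T, 179 CPM in Takara and 422 CPM in NEB). Without a read in the kept cells of any protocol were 14 of the 65, among them PFKFB1, PGK2, PGAM2, LDHC, FBP2, SLC2A3, SLC16A7, TKTL1, TKTL2, PDHA2, PCK1 and ME1. A list of 9 genes known to respond to low oxygen (CA9, VEGFA, ADM, NDRG1, BNIP3, EGLN3, ANKRD37, P4HA1 and HILPDA) had 2 genes higher and 0 lower in Takara over NEB and in G&T over NEB, and 1 higher and 2 lower in G&T over Takara, with medians of 0.17, -0.11 and -0.29. CA9 had no read in any protocol. As shares of the 9 genes, 22.2% were higher in each comparison with NEB, against 39.3% of all genes for Takara and 37.9% for G&T. In G&T over Takara 11.1% were higher and 22.2% lower, against 17.3% and 19.9% of all genes. Only 4 of the 9 reached a mean of 10 CPM, so most were too low to compare with that background.

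Many of the 38 genes have pseudogenes that could draw reads. The 114 annotated pseudogenes of 17 of them, found by name, held 314 reads in the kept cells and at most 3.36% of the reads of the parent gene in a protocol. Exon bases of 23 of the genes overlap another annotated gene, by more than 10% in ALDOA, ALDOC, GAPDH, LDHB, PDHA1 and IDH3A, whose counts are to that extent uncertain.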

How the data were processed

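Full-length cDNA of single sorted T47D cells was amplified and sequenced by 3 protocols. Per the methods, the authors trimmed the reads with Trim Galore, checked them with FastQC, aligned them to GRCh38 with STAR and took STAR's own count of reads per gene. That count leaves out reads that map to several places or overlap more than 1 gene, so a gene with close copies or overlapping neighbours can be undercounted. The annotation release and the strand setting are not given in the sources used here. The deposited values are raw read counts per gene and cell, which include 92 ERCC spike-in transcripts and 4 categories of unassigned reads. The unassigned categories were left out throughout.

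The quality limits of the methods were applied: cells with fewer than 1000 genes, fewer than 600000 reads, over 30% mitochondrial or over 25% ERCC reads were removed, which left 33 of 40 cells. CPM was computed over reads on genes without ERCC. Kept cells of a protocol were summed, and ratios used a pseudocount of 1 CPM for the log2 value and a 2-fold limit. Genes with a mean pooled level of at least 10 CPM formed the background (8229 genes, 28 of them without an annotation match). A pooled level of a gene without a read was bounded by 3 reads over the protocol, and intervals are exact Poisson and binomial intervals at 95%. Since each protocol is 1 sample, no test was run.

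The 38 genes and all lists were chosen with earlier results of these data known. Values in full were given for the highest gene of each role, isozymes, genes at 2-fold in any pair, genes unread in many cells, and the 5 highest other pathway genes. Lengths, GC content, coordinates and sequences came from GENCODE 44 on GRCh38. Alternatives changed the fold limit, pseudocount, scaling (TMM of edgeR 4.0.16, ERCC, without mitochondrial genes), cell filter, gene length and single cells, and 3 of them (canonical length, ratios relative to the median of all genes, genes at 10 CPM or more) were chosen after seeing the data. Scripts used Python 3.11.15, numpy 2.4.6, pandas 2.3.3, scipy 1.17.1 and R 4.3.3, and were checked on simulated data.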

Additional observations from a re-analysis of the deposited data

Results flagged for a closer look

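The 7 wells that the quality limits removed lie outside every comparison, and reads of the 38 genes were counted in them against the limit of 3 reads per gene. G&T well F1 had more than 3 reads on 32 of the 38 genes and G&T well C2 on 23, with 0.871% and 0.407% of their reads on the set. NEB well F2 had more than 3 reads on 20 of the genes and NEB well B2 on 8, the latter with 28.4% ERCC reads. Takara well C2 had more than 3 reads on 2 genes, among 91 reads on the set of which 62 were on SLC16A3, and ERCC spike-ins made up 91.3% of that library. Takara well F1 and NEB well F1 had more than 3 reads on 0 genes, with 96.7% and 99.7% ERCC reads.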

How the results depend on the processing

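No paired analysis was possible because no cell of a protocol is tied to a cell of another. Of 207 values recomputed for 30 results, 184 kept within the spread over cells or within 1.5 times the count. All 396 values with 1 cell left out did so too, but part of them could not have failed. Pathway shares and genes detected per cell are means over cells. Leaving out 1 cell cannot move such a mean by as much as the SD over cells. For HK1 in NEB that SD was 49.2 points. A range of 37.0% to 86.7% of hexokinase thus counted as kept, although HK1 was not the main isozyme without cell A1. The count of 396 therefore does not show that the results are stable. At a 1.5-fold limit 22 genes were lower in G&T than in Takara (33.5% of all genes). Without mitochondrial reads the Takara shares came to 1.26% for glycolysis, 0.0950% for the pentose phosphate group and 0.356% for the TCA cycle, and the G&T pentose phosphate share to 0.0844%. With all deposited wells the Takara shares were 0.9754%, 0.0723% and 0.272%. Without the gene with most reads of each group they were 0.899%, 0.0535% and 0.212%, with 0.0396% for the pentose phosphate group and 0.144% for the TCA cycle in G&T and 0.0724% for the TCA cycle in NEB. The MDH2 share of malate dehydrogenase went to 65.2% in G&T and 73.8% in Takara without length, to 58.7% and 68.1% with the longest transcript and to 52.8% and 62.7% with the canonical one, and the PFKL share in Takara to 45.9% with the longest transcript. Takara cells had at least 5 reads on 33.9 genes, and all Takara wells a read on 30.4. Scaling turned the sign of ratios near 0 in PGM1, MDH1, PDHA1 and GPI, and moved HK1, ENO1, PGK1, OGDH or FH across 2-fold in single settings, as the inclusion of all deposited wells did for PFKL, PGK1 and OGDH. Against NEB, scaling with ERCC shifted the median of all genes by 0.15 for G&T and 0.16 for Takara, and removing mitochondrial reads shifted it by 0.11 for G&T. Leaving out 1 cell at a time gave 3 to 6 genes higher and 12 to 15 lower in G&T over Takara, 24 to 25 and 5 in G&T over NEB, and 28 to 29 and 2 to 3 in Takara over NEB. The design holds 1 run per protocol and no stated repeat of the culture, so no difference has a replicate check.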
